A study of Brassica napus with 48 samples.

Results

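Shading was compared with the unshaded control in seeds of the Brassica napus hybrid Lumen, sown at the optimal date and collected 7 days after flowering (DAF). The members were chosen by their labels as the libraries of Lumen, optimal sowing and 7 DAF, which gave 6 of the 48 libraries of the study, 3 from control plots and 3 from shaded plots. The study grew 2 spring rapeseed hybrids, Lumen and Solar, at an optimal and a late sowing date, and sampled seeds at 7 and 14 DAF. The field layout was a nested plot design with 3 replicates, in which plots of both hybrids lay within each shaded or control area of a sowing date. Shaded plots stood under black nets that took out 75% of the incoming radiation from the start of flowering until 15 DAF, which is meant to lower the source-sink (S–S) ratio, the supply of assimilates per growing seed. Control plots had no net, and both groups otherwise shared the hybrid, the sowing date and the age of the seeds. Each plot gave 1 pool of seeds at each age, taken from 5 plants with 25 siliques per plant. Each of the 6 libraries compared is therefore 1 plot. The p-values rest on the spread within groups over all Lumen libraries, of both ages and both sowing dates. Both ages were sampled from the same plots, and the fit treats their libraries as independent.

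Seeds at this age are young sinks in which the endosperm and the seed coat are large and the embryo is still small, and they depend on sucrose that arrives through the phloem and is handed on by sucrose/H+ symporters and SWEET efflux carriers. NAC transcription factors are a plant family known in Arabidopsis for regulating senescence, cell death and stress responses. HB21, HB40 and HB53 form a small clade of HD-Zip homeobox factors that in Arabidopsis act in axillary buds and raise abscisic acid there. The question that this comparison addresses is which mRNA levels in the seed differ when the plant has less light during seed set.

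Expression was given as TPM, the length-corrected transcript level relative to the whole library, normalized between libraries and rounded to whole numbers. The values of the 6 libraries summed to between 927566 and 974970 TPM, and between 53029 and 53897 of 101040 genes had a value above 0. In the 9398 genes whose mean reached 20 TPM, the median absolute log2 difference between libraries was 0.128 to 0.161 within the control, 0.0962 to 0.129 within shading, and 0.149 to 0.197 between the groups. Libraries labelled Solar in this series hold differing shares of Lumen transcripts, so the share of Solar-specific transcripts was checked in these Lumen libraries. It was 1.25%, 0% and 1.69% in the control and 0.702%, 0.0885% and 0.316% under shading. Few markers of seed tissues could be matched: the only one was an oleosin, a protein of oil bodies, and it (BnaA07g14960D) was at 0 in all 6 libraries, so the tissue label could not be checked with it. Both SHP1 homologs, known from the silique wall, had 12, 11 and 13 TPM in the control and 11, 12 and 10 TPM under shading for BnaA07g18050D, and 16, 12 and 22 TPM against 15, 12 and 19 TPM for BnaC08g29520D, with overlapping groups in both.

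Of 54173 genes tested, 231 (0.426%) passed an adjusted p of 0.05 in limma. Among them 137 (0.253%) were higher and 94 (0.174%) were lower under shading. Rounding to whole TPM touches the low genes first: 113 of the 231 had both group means under 5 TPM, and 45 were 0 in each library of a group and 1 in each library of the other. The results below therefore rest on the 118 genes past the threshold with at least 5 TPM in a group mean, which is 0.39% of the 30224 genes at that level. Of these 56 (0.185%) rose and 62 (0.205%) fell. In none of the 118 did the groups overlap, but these genes were selected on the same values, so this is not separate evidence. Over all genes tested, 6738 (12.4%) had groups that did not overlap, 7.08% with shading higher and 5.36% with shading lower. That split depended on the scaling, with 3833 higher and 2905 lower as deposited and 8493 higher and 2849 lower after each library was rescaled to the same sum. With the spread estimated from these 6 libraries alone, 1370 genes passed, and 143 of them were among the 231. With a library left out, 90 (control replicate 3) to 149 (shaded replicate 1) genes passed.

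Among the genes past the threshold, those that rose changed more by median than those that fell. They were selected on these same values, so whether rising and falling genes differ in size more widely was not tested. The median log2 fold change was 2.07 over the 56 that rose and -1.18 over the 62 that fell, on the log2(TPM + 0.5) scale, which understates the change of low genes. More than 4-fold changes were found in 31 of the 56 and in 12 of the 62. The rising genes were lowly expressed, with shaded means of 5.0 to 298.7 TPM and a median of 14.3 TPM. The falling genes had control means of 5.0 to 729 TPM with a median of 21.2 TPM. The shaded libraries did not respond to the same extent: replicate 1 was the lowest of the 3 shaded libraries in 42 of the 56 rising genes, replicate 2 in 5 and replicate 3 in 4. In the falling genes, shaded replicate 1 was the highest of the 3 in 22 of 62 and replicate 2 in 16. Because seeds were taken whole, fewer cells of a type and less RNA per cell cannot be told apart in any of these differences.

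**Figure D1:**
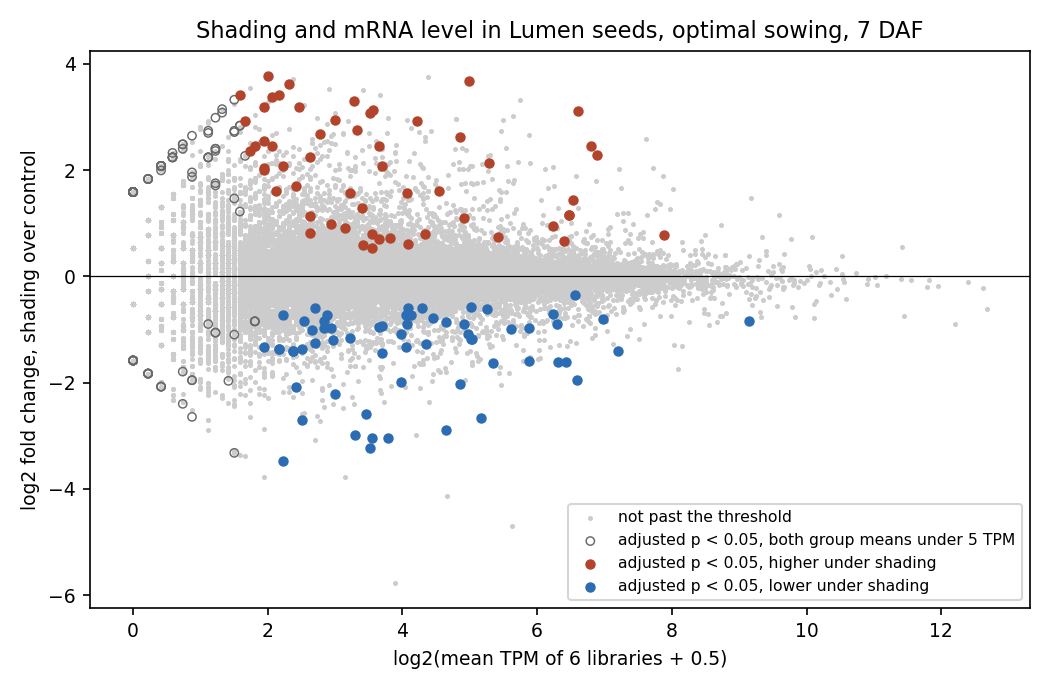
Mean level of the 6 libraries (x axis, log2(TPM + 0.5)) against the log2 fold change of shading over control (y axis) for the genes tested. Coloured points are the 56 genes that rose and the 62 that fell with at least 5 TPM in a group mean, and open circles are genes past the threshold below that level. By median the coloured rising genes lie farther from 0 than the coloured falling ones.

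Among the 56 genes that rose, 10 have a description, and they are led by a hormone-conjugating enzyme, transcription factors and proteins of unknown function. BnaA01g00580D, a GH3 gene, had 5, 3 and 4 TPM in the control and 37, 72 and 66 TPM under shading. GH3 enzymes join amino acids to hormones such as auxin or jasmonate. Its log2 fold change was 3.68 ± 0.48 (SE, 3 against 3 libraries, adjusted p = 0.000758), and it passed in 6 of 6 fits that left out a library. The lowest shaded value was far above the highest control value.

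HB21 was represented by 2 homologs. BnaA09g09650D had 44, 45 and 29 TPM in the control and 124, 237 and 228 TPM under shading, a log2 fold change of 2.27 ± 0.47 (adjusted p = 0.0350). BnaCnng58720D had 15, 16 and 10 TPM against 40, 76 and 73 TPM, a log2 fold change of 2.14 ± 0.46 (adjusted p = 0.0460). The 2 copies moved in parallel over the libraries, with shaded replicate 1 the lowest shaded value in each, and reads that match both copies may have been divided between them. BnaA09g09650D passed only without shaded replicate 1 (adjusted p 0.0418 to 0.193 over the 6 fits), and BnaCnng58720D in none of the 6 fits (0.0522 to 0.231). The HB40 homologs did not pass: BnaA01g01090D had 3, 7 and 3 TPM against 22, 27 and 25 TPM (log2 fold change 2.47, adjusted p = 0.240), and BnaC01g02120D had 2, 2 and 1 TPM against 11, 15 and 12 TPM (2.63, adjusted p = 0.0641). All 4 listed HB21 and HB40 homologs had groups that did not overlap, with shading higher, beside 7.08% of all genes. Their median log2 fold change was 2.37, and the list held no HB53 homolog. All 4 are also among the transcription factors that the study ranked on samples which include these, so the count is not independent evidence of a direction.

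The listed NAC factors had higher values under shading in most members. Of 40 listed members 32 were tested, 3 passed the threshold higher and 0 lower, and 18 had groups that did not overlap, all with shading higher, beside 7.08% of all genes. Their median log2 fold change was 1.50 and 30 of 32 were above 0. Of the 32, the study had ranked 24 on samples that include these, and 17 of those 24 had non-overlapping groups, and the 24 had a median of 1.72. Among the 8 that were not ranked, 0 passed, 1 had groups that did not overlap and the median was 0.47. With limma, 17 of the 32 had an unadjusted p under 0.05 with shading higher, beside 4.84% of all genes. Among the 8 that were not ranked it was 1. Because the ranking used samples of this comparison, the counts over all 32 are not independent evidence of a direction.

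BnaC07g25530D, a homolog of the Arabidopsis senescence regulator AT3G29035 that is named NAC3, had 1, 2 and 1 TPM in the control and 9, 17 and 15 TPM under shading. Its log2 fold change was 2.95 ± 0.46 (adjusted p = 0.00495), and it passed in 6 of 6 fits that left out a library. Its A-subgenome counterpart BnaA06g31080D had 1, 1 and 0 TPM against 3, 7 and 8 TPM (2.54 ± 0.52, adjusted p = 0.0350), and it passed in 1 of 6 such fits. BnaA05g37400D, named NAC046 after a factor that promotes chlorophyll breakdown in Arabidopsis, had 1, 1 and 1 TPM against 4, 6 and 7 TPM (2.01 ± 0.42, adjusted p = 0.0389), and it passed in 0 of 6 fits that left out a library (adjusted p 0.0592 to 0.194). In all 3 genes every shaded library was above every control library, and shaded replicate 1 was the lowest of the shaded values.

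Other NAC genes had wide separation and missed the threshold. NAC003 (BnaC03g58370D) had 0, 1 and 0 TPM in the control and 5, 9 and 6 TPM under shading (log2 fold change 3.27, adjusted p = 0.0939). ANAC087 (BnaC03g08880D), a factor of programmed cell death in the Arabidopsis root cap, had 5, 5 and 5 TPM against 11, 20 and 17 TPM (1.54, adjusted p = 0.0939). NAC047 (BnaC01g40250D) reached the highest shaded mean of the family, 44.3 TPM, with 14, 16 and 5 TPM against 36, 49 and 48 TPM (2.02, adjusted p = 0.298). BnaA07g28000D, a homolog of the Arabidopsis senescence factor AT1G69490, had 12, 14 and 3 TPM against 18, 36 and 32 TPM (1.70, adjusted p = 0.378). In NAC047 and BnaA07g28000D control replicate 3 was far below the other control libraries. NAC082 (BnaC09g47170D) had overlapping groups, with 8, 6 and 6 TPM against 8, 14 and 12 TPM (0.70, adjusted p = 0.488).

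**Figure D2:**
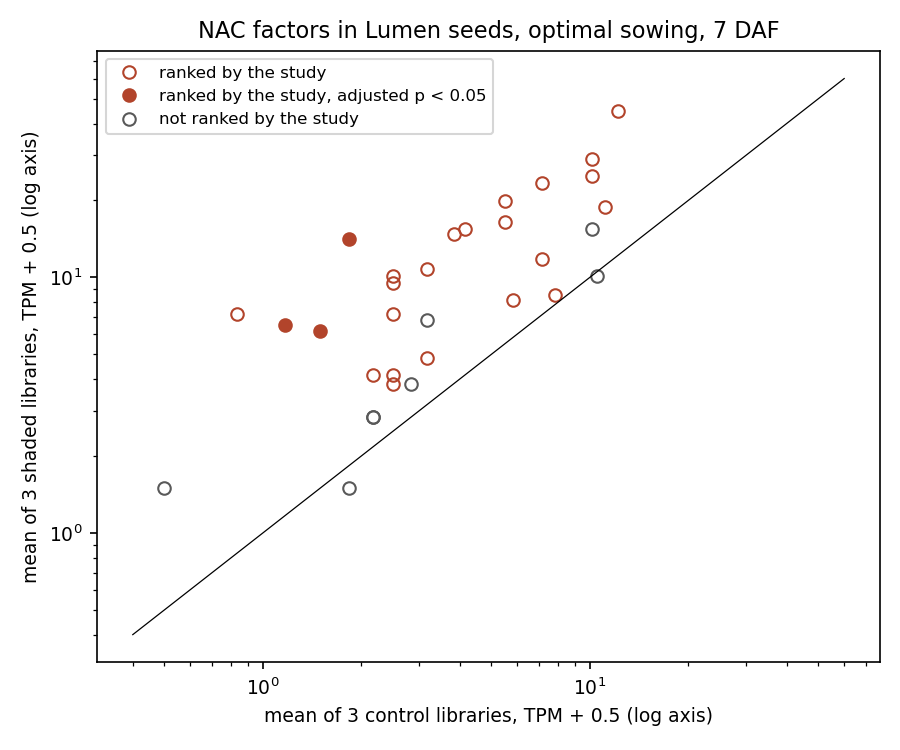
Control mean (x axis) against shaded mean (y axis), both in TPM + 0.5 on log axes, for the 32 NAC genes tested, with the 24 that the study ranked and the 8 that it did not in different colours. The line marks equal means, and 30 of 32 genes lie above it.

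ABS2 (BnaA05g08190D), a B3-domain factor of the family that holds the NGATHA-like regulators of organ and seed size in Arabidopsis, rose from 1, 0 and 1 TPM to 6, 11 and 11 TPM (3.19 ± 0.56, adjusted p = 0.0136). With each library left out in turn it passed in 3 of 6 fits (adjusted p up to 0.0845). It was the only one of 11 tested B3 genes past the threshold, and the median of the list was 0.09. NGAL2 (BnaC01g44850D), of the same family, had 5, 3 and 3 TPM against 6, 8 and 8 TPM (0.93, adjusted p = 0.408). MYB45 (BnaA06g38670D) also passed, below 5 TPM, with 0, 1 and 0 TPM against 3, 3 and 4 TPM (adjusted p = 0.0495). Over all 84 factors ranked by the study, 7 passed higher (0.253% of all genes did) and 0 lower, 57 had groups that did not overlap with shading higher (7.08% of all genes), and the median log2 fold change was 1.13. Samples of this comparison were among those used for that ranking.

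The remaining transcription factor families had no member past the threshold among AP2/ERF (41 tested), WRKY (14) and bZIP (24). The medians were 0.575, 0.33 and 0.27, beside a median of 0 over all genes. Groups did not overlap, with shading higher, in 10, 5 and 8 members, beside 7.08% of all genes, and 10, 3 and 3 had an unadjusted p under 0.05 in limma with shading higher, beside 4.84% of all genes. Without the members that the study ranked, the medians were 0.25 for 31 AP2/ERF genes, -0.05 for 9 WRKY genes and 0.10 for 19 bZIP genes. Groups then did not overlap, with shading higher, in 3, 0 and 5 members. An unadjusted p under 0.05 in limma with shading higher was left in 3, 0 and 1. The WRKY26 homologs had the smallest adjusted p of the WRKY genes, with 1, 1 and 1 TPM against 3, 6 and 6 TPM in BnaC02g01720D (adjusted p = 0.0725) and 0, 0 and 1 TPM against 4, 5 and 8 TPM in BnaAnng01980D (adjusted p = 0.0855). CRF6 (BnaA07g38140D), a cytokinin response factor, had 3, 2 and 2 TPM against 4, 7 and 8 TPM (1.24, adjusted p = 0.262). An AP2/ERF homolog of AT3G16280, BnaC05g37110D, had 18, 17 and 13 TPM against 26, 45 and 44 TPM (1.21, adjusted p = 0.559). Some AP2/ERF genes varied widely within a group: BnaC06g35730D had 47, 5 and 14 TPM in the control and 83, 45 and 44 TPM under shading (1.83, adjusted p = 0.695).

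The other described genes that rose were 2 genes of the plant family DUF241, whose function is not known, and a kinase. BnaC01g02970D had 7, 9 and 6 TPM in the control and 30, 58 and 61 TPM under shading (2.63 ± 0.55, adjusted p = 0.0392). BnaC07g45770D had 0, 1 and 0 TPM against 4, 10 and 9 TPM (3.41 ± 0.52, adjusted p = 0.00384). BnaC03g40040D, a homolog of the calcium-regulated kinase gene CIPK1, had 3, 6 and 4 TPM against 12, 13 and 15 TPM (1.56 ± 0.32, adjusted p = 0.0347). Of these BnaC07g45770D passed in 6 of 6 fits that left out a library, BnaC03g40040D in 1 of 6 and BnaC01g02970D in 0 of 6, where its adjusted p was 0.0522 to 0.195. Among 178 kinase genes tested, 1 passed higher and 1 lower, and the median was 0.00.

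Genes without a description are given by identifier. Among the largest changes past the threshold, BnaC04g35390D was listed at 0 in all control libraries and had 3, 9 and 9 TPM under shading (adjusted p = 0.00293), and BnaA07g36520D, chosen after its values were seen, was listed at 0 in all control libraries and had 3, 6 and 6 TPM (adjusted p = 0.0102). BnaC04g02100D had 0, 1 and 0 TPM against 6, 12 and 8 TPM (3.62 ± 0.76, adjusted p = 0.0423), and passed in 1 of 6 fits that left out a library (adjusted p up to 0.207). At higher levels, and chosen after their values were seen, BnaA02g31500D rose from 13, 20 and 24 TPM to 92, 200 and 231 TPM (3.10 ± 0.66, adjusted p = 0.0444) and BnaA05g24100D from 36, 33 and 32 TPM to 188, 184 and 189 TPM (2.46 ± 0.47, adjusted p = 0.0253). BnaA05g24100D was level within each group, unlike most rising genes, where shaded replicate 1 was lower.

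**Figure D3:**
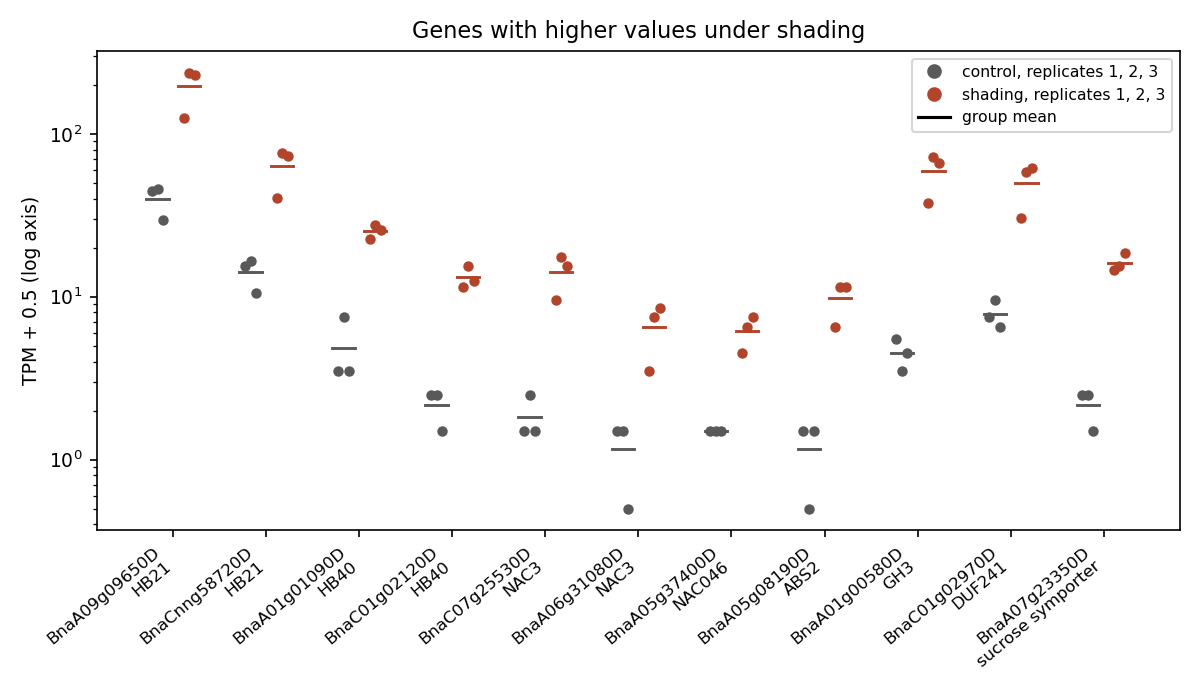
TPM + 0.5 (log axis) in each of the 3 control and 3 shaded libraries for 11 described genes with higher shaded values, among them HB21, HB40, NAC3, NAC046, ABS2, the GH3 gene and the sucrose symporter gene. Each point is a library. Every shaded point lies above every control point of its gene, and the 2 HB40 genes and the symporter gene did not pass the threshold. Groups that did not overlap were a condition for choosing most of these genes.

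Sugar supply was described by 8 tested sucrose transporter genes, of which 0 passed the threshold in either direction. Of the 8, 3 had an unadjusted p under 0.05 in limma, beside 8.52% of all genes. The sucrose/H+ symporter gene BnaA07g23350D, a homolog of AT1G71890 (SUC5, known from the Arabidopsis endosperm), had 2, 2 and 1 TPM in the control and 14, 15 and 18 TPM under shading. Its log2 fold change was 2.93 ± 0.66 with an adjusted p of 0.0593. It passed with a pseudocount of 1 (adjusted p = 0.0296), after rescaling to equal sums (0.0457), after quantile normalization (0.0442) and with only the 6 libraries (0.00849). It did not pass with all 48 libraries (0.0681), the 5 TPM filter (0.0740) or no filter (0.0646). Median-ratio rescaling (0.0586), no variance trend (0.0598) and the replicate block (0.0637) did not make it pass either. With a library left out it passed in 0 of 6 fits (0.131 to 0.262). The phloem-loading symporter SUC2 (BnaC07g13570D) had 1, 1 and 1 TPM against 4, 4 and 4 TPM (1.58 ± 0.45, adjusted p = 0.178).

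The efflux carriers had values in the other direction or overlapping values. BnaA10g20120D, a homolog of AT5G13170 (SWEET15), had 12, 10 and 17 TPM against 5, 7 and 7 TPM (-0.96 ± 0.23, adjusted p = 0.0861), with groups that did not overlap. SWEET11 (BnaC03g52910D) had 3, 7 and 3 TPM against 4, 8 and 6 TPM (0.48, adjusted p = 0.917), and SWEET12 (BnaC09g04760D) had 2, 5 and 2 TPM against 2, 1 and 3 TPM (-0.46, adjusted p = 0.928). The symporter homolog of AT1G09960, BnaC08g42460D, was level at 7, 7 and 7 TPM against 6, 6 and 7 TPM. Of 12 hexose and inositol transporter genes tested 0 passed and 0 had an unadjusted p under 0.05 in limma, with a median of -0.02. Of 10 markers of sugar starvation and dormancy 0 passed, and the median was 0.20. In limma 2 had an unadjusted p under 0.05 with shading higher and 1 lower, beside 4.84% and 3.68% of all genes. Groups did not overlap in 3 with shading higher and 1 lower, beside 7.08% and 5.36% of all genes.

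Among the 62 genes that fell, 4 have a description. BnaA10g23900D, a methionine sulfoxide reductase of the MsrA type that repairs oxidised methionine in proteins, had 19, 15 and 16 TPM in the control and 4, 1 and 1 TPM under shading (-2.98 ± 0.53, adjusted p = 0.0139). BnaA01g11840D is a homolog of AT4G21990 (APR3), a reductase of sulfate assimilation. It had 9, 12 and 10 TPM against 6, 4 and 3 TPM (-1.20 ± 0.24, adjusted p = 0.0334). The sulfite reductase gene of the next step, BnaA10g25620D, had 42, 41 and 39 TPM against 34, 31 and 27 TPM and did not pass (-0.41 ± 0.11, adjusted p = 0.123). The leave-one-out adjusted p was 0.00453 to 0.0984 for BnaA10g23900D and 0.0151 to 0.201 for BnaA01g11840D, so each call was lost without some of the libraries.

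BnaC07g47330D, a homolog of AT4G39210 (APL3, a large subunit of the starch enzyme ADP-glucose pyrophosphorylase), had 28, 24 and 30 TPM in the control and 19, 14 and 14 TPM under shading (-0.79 ± 0.15, adjusted p = 0.0193). The plasma membrane aquaporin gene BnaC08g31360D, a homolog of AT3G61430, had 21, 23 and 25 TPM against 15, 15 and 15 TPM (-0.60 ± 0.11, adjusted p = 0.0238), and was the only one of 10 aquaporin genes past the threshold. After rescaling to equal sums neither passed, with adjusted p of 0.0949 and 0.0662. With a library left out, the first passed in 2 of 6 fits and the second in 1 of 6. A related starch gene, the plastid ATP carrier BnaC06g19090D, had 23, 22 and 25 TPM against 15, 12 and 12 TPM (-0.83 ± 0.22, adjusted p = 0.122).

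Further described genes had lower values under shading and missed the threshold. They were chosen from genes whose groups did not overlap, so that separation is a condition of the choice. A gene with a chalcone isomerase domain, BnaA10g25120D (homolog of AT5G05270), had 88, 112 and 116 TPM against 48, 68 and 68 TPM (-0.78, adjusted p = 0.127). Glutamine synthetase (BnaC03g40250D), which fixes ammonium, had 19, 27 and 23 TPM against 14, 16 and 18 TPM (-0.50, adjusted p = 0.0988). An amino acid transporter gene, BnaC08g27150D, had 44, 30 and 41 TPM against 21, 15 and 15 TPM (-1.15, adjusted p = 0.0887). The cysteine peptidase gene BnaC07g18750D, a homolog of the senescence marker SAG12, had 2, 37 and 10 TPM against 0, 0 and 1 TPM (-3.79, adjusted p = 0.135), with a wide spread in the control.

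Most genes that fell are known by identifier only, and some of them are neighbours. BnaC03g03070D, BnaC03g03090D, BnaC03g03100D and BnaC03g03110D have identifiers close to each other on chromosome C03, and all 4 fell. BnaC03g03110D had 19, 17 and 25 TPM in the control and 2, 2 and 2 TPM under shading (-3.04 ± 0.43, adjusted p = 0.00174), and BnaC03g03070D had 49, 33 and 41 TPM against 19, 3 and 2 TPM (-2.89). BnaA06g15780D and BnaA06g15800D, close on chromosome A06, had 92, 73 and 99 TPM against 31, 28 and 27 TPM (-1.59) and 64, 62 and 55 TPM against 27, 15 and 17 TPM (-1.64). Whether these neighbours share reads was not tested, and all of them were chosen after their values were seen, except BnaC03g03110D.

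Some falling genes stood at higher levels. BnaC03g20530D had the highest control mean of the 62, with 719, 702 and 766 TPM in the control and 355, 449 and 418 TPM under shading (-0.84 ± 0.14, adjusted p = 0.00961). BnaC07g29830D had 195, 212 and 236 TPM against 79, 82 and 79 TPM (-1.41 ± 0.18, adjusted p = 0.000482). Both were chosen after their values were seen. The largest falls were at low levels, in BnaA07g07970D with 5, 12 and 7 TPM against 1, 0 and 0 TPM (-3.48 ± 0.73, adjusted p = 0.0389) and BnaAnng39320D with 25, 18 and 17 TPM against 4, 1 and 1 TPM (-3.22 ± 0.57, adjusted p = 0.0136). These passed in 1 and 2 of 6 fits that left out a library, with adjusted p of up to 0.202 and 0.0954. BnaA10g07250D also passed, with both group means below 5 TPM and so outside the 62. It had 3, 5 and 6 TPM in the control and was listed at 0 in all shaded libraries (adjusted p = 5.62e-05), where rounding leaves no spread.

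**Figure D4:**
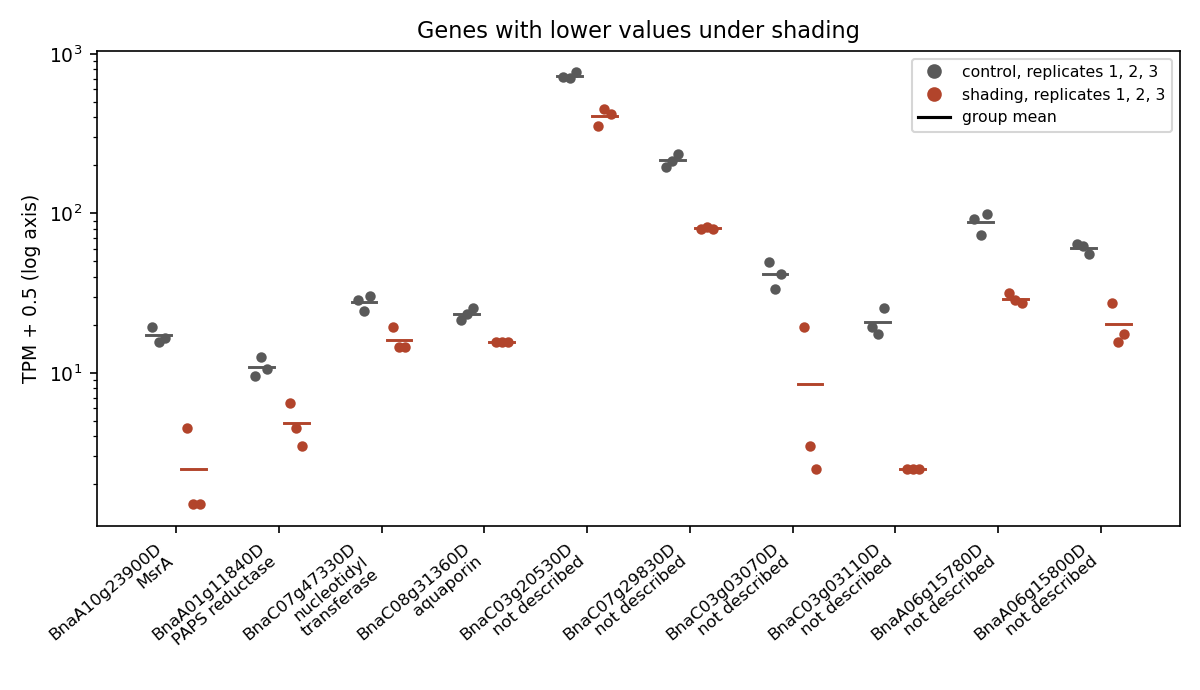
TPM + 0.5 (log axis) in each of the 3 control and 3 shaded libraries for 10 genes that fell, the 4 described ones and 6 known by identifier. Each point is a library, and every shaded point lies below every control point of its gene. Groups that did not overlap were a condition for choosing the 4 described ones.

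Lists of basic cell functions had no member past the threshold. None of 162 ribosomal protein genes (median 0.05), 35 histone genes, 16 genes of cyclins and replication licensing factors, 13 of tubulins, actins and kinesins, 15 MADS-box genes, 20 genes of fatty acid metabolism and 48 heat shock protein genes passed in limma. Unadjusted p under 0.05 was found in 9 ribosomal protein genes with shading higher and 2 with shading lower, in 0 histone genes, in 0 MADS-box genes, in 1 cyclin or licensing factor gene with shading higher, in 2 tubulin, actin or kinesin genes, and in 5 heat shock genes with shading higher, beside 8.52% of all genes in either direction. Among the genes of fatty acid metabolism 3 had an unadjusted p under 0.05, all with shading lower, and the desaturase gene BnaC05g40970D, a homolog of FAD2, had 78, 98 and 89 TPM against 73, 65 and 63 TPM (-0.39, adjusted p = 0.362). Of 13 tested genes for oleosins, late embryogenesis proteins and storage proteins 0 passed and 2 had an unadjusted p under 0.05 with shading higher. Of 46 cell wall enzyme genes, 25 peroxidase and glutathione transferase genes, 17 amino acid and peptide transporter genes and 7 light harvesting and photosystem genes, 0 passed in limma, and 4, 1, 3 and 1 had an unadjusted p under 0.05. Of 17 tested markers of abscisic acid and water stress 0 passed and 1 had an unadjusted p under 0.05 with shading higher, the median was 0.18, and the dehydrin gene BnaC06g36880D of this list had 178, 133 and 166 TPM against 220, 207 and 222 TPM (0.45).

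The study names 17 genes in its figures and text, and 16 could be tested. None passed the threshold in this comparison in limma. With shading higher, 8 had an unadjusted p under 0.05, beside 4.84% of all genes. Of the 16 log2 fold changes 15 were above 0, with a median of 0.61. Without the transcription factors that the study ranked, 1 of the 6 tested had such a p, and the median was 0.46. The study chose its genes from analyses of samples that include these, so the counts are not independent evidence of a direction. Homologs of DA2, a ubiquitin ligase that limits seed size in Arabidopsis, had 2, 1 and 2 TPM against 2, 2 and 2 TPM (0.25, BnaA01g19380D) and 3, 3 and 3 TPM against 3, 5 and 5 TPM (0.43, BnaA02g18890D). IDD1 (BnaA09g52630D), a zinc finger factor, had 10, 11 and 11 TPM against 12, 13 and 14 TPM (0.27). FER (BnaC07g32280D), a homolog of the receptor kinase gene FERONIA, had 0, 1 and 1 TPM against 1, 1 and 1 TPM.

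The same hybrid was shaded in 3 further settings, each with its own control and shaded libraries. All settings were read from the same fit, with the same spread for each gene, so passing there is not independent of passing here. Of the 56 rising genes, 54 had the same sign in the late sowing at 7 DAF, where their median was 2.17 and 44 passed. At 14 DAF in the optimal sowing 50 had the same sign, with a median of 1.13, and 25 passed there, while 1 passed in the opposite direction. Without shaded replicate 1 of the setting, which was chosen after the data were seen, 49 passed in the late sowing at 7 DAF and 11 at 14 DAF. In the late sowing at 14 DAF 28 had the same sign, the median was 0.0097 and 0 passed. Among all genes with a value above 0 here, 60.3%, 61.0% and 53.6% had the same sign. Over all 54173 genes, 2219, 1489 and 16 passed in these settings. Of these 1830, 878 and 10 were higher and 389, 611 and 6 were lower under shading.

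Fewer of the falling genes passed in the late sowing at 7 DAF and in the optimal sowing at 14 DAF. Over all genes, too, fewer passed lower than higher in these settings, and whether the falling genes differ from that was not tested. At 7 DAF in the late sowing 58 of 62 had the same sign (median -0.65, 17 passed), at 14 DAF in the optimal sowing 49 (median -0.51, 17 passed and 3 passed in the opposite direction) and at 14 DAF in the late sowing 44 (median -0.19, 0 passed). Among all genes with a value below 0 here, 64.5%, 57.3% and 54.2% had the same sign. The late sowing at 7 DAF and the optimal sowing at 14 DAF both had the gene past the threshold with the same sign for 23 of the 56 rising and 9 of the 62 falling genes, and neither had it for 10 and 34. The matching shares over all genes were not counted.

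**Figure D5:**
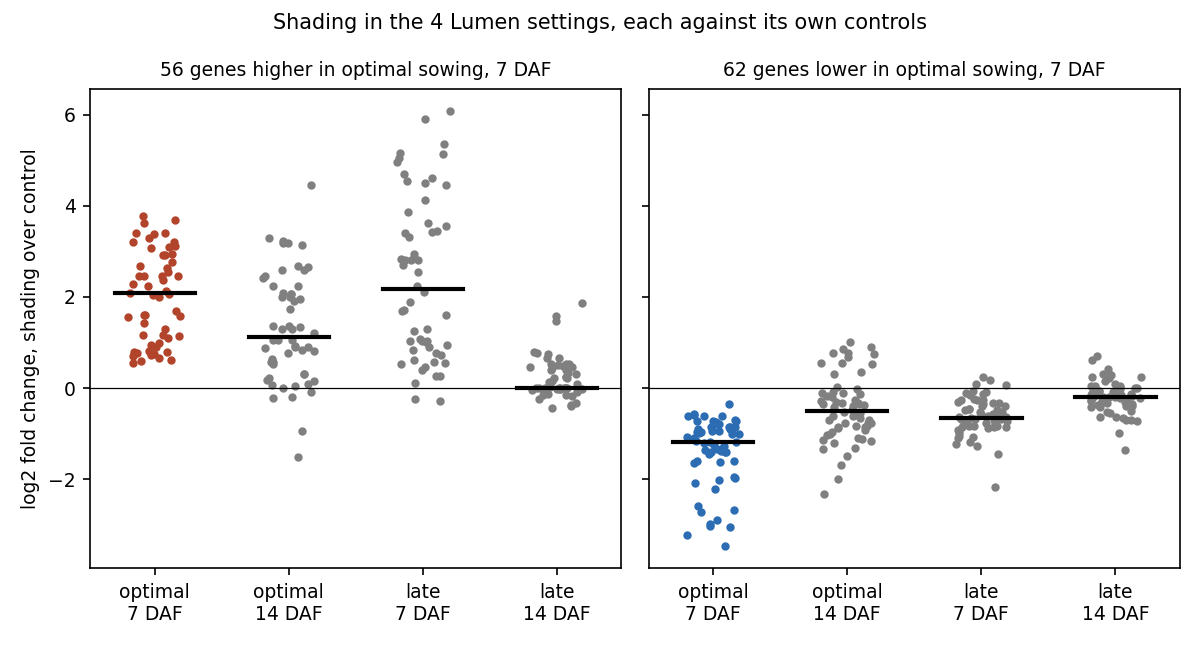
Log2 fold change of shading over control (y axis) in each of the 4 settings of Lumen (x axis) for the 56 genes that rose and the 62 that fell at 7 DAF in the optimal sowing. Each point is a gene and each bar the median, which for the rising genes is 2.07 here, 1.13 at 14 DAF of the optimal sowing, and 2.17 and 0.0097 in the late sowing at 7 and 14 DAF.

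Single genes show what these medians hold. The GH3 gene BnaA01g00580D had 3, 4 and 3 TPM in the control and 40, 170 and 239 TPM under shading in the late sowing at 7 DAF, and 1, 2 and 2 TPM against 80, 27 and 45 TPM at 14 DAF in the optimal sowing. HB21 (BnaA09g09650D) had 9, 8 and 7 TPM against 74, 351 and 295 TPM in the late sowing at 7 DAF, and 12, 12 and 16 TPM against 90, 42 and 49 TPM at 14 DAF in the optimal sowing. NAC3 (BnaC07g25530D) was listed at 0 in the controls of both settings and had 6, 36 and 36 TPM and 7, 3 and 4 TPM under shading. Shaded replicate 1 was thus the lowest shaded library in both sowings at 7 DAF and the highest at 14 DAF in each of the 3 genes. In the late sowing at 14 DAF the levels were low in both groups, with 2, 4 and 5 TPM against 4, 8 and 4 TPM in HB21 and with NAC3 listed at 0 in all 6 libraries.

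In some of the rising genes the effect was larger in the late sowing at 7 DAF, and whether the difference passed its test rested on 1 library. That library, shaded replicate 1 of the late sowing, was chosen after the data were seen. Shaded replicate 1 of the optimal sowing, the lowest shaded library here in 42 of the 56 rising genes, was kept. A weaker library was thus left out on the late side only. The log2 fold change of HB21 (BnaA09g09650D) was 2.27 here and 4.55 there, and the adjusted p of the difference was 0.453 with all libraries and 0.00669 without shaded replicate 1 of the late sowing. For the GH3 gene BnaA01g00580D it was 0.773 and 0.0480, for NAC3 (BnaC07g25530D) 0.427 and 0.000899, and for the DUF241 gene BnaC01g02970D, with log2 fold changes of 2.63 here and 5.90 there, it was 0.300 and 0.00422. For the symporter gene BnaA07g23350D it was 0.878 and 0.236. Without that library the difference passed in 10 of the 56 rising genes, with the smaller effect here in 8 of them. The 56 were selected on the effect here, which is a term of this difference. Over all genes 25 (0.0461%) differed between the sowing dates at 7 DAF with all libraries, 3 of them with at least 5 TPM in a group mean, and 620 differed without that library.

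Values in the other settings are given here for 2 of the falling genes. The MsrA gene BnaA10g23900D had a log2 fold change of -2.98 here, -0.85 at 14 DAF and -0.94 in the late sowing at 7 DAF, and its differences did not pass (adjusted p = 0.471 and 0.616). The starch gene homolog BnaC07g47330D had -0.79 here and -0.70 in the late sowing at 7 DAF, with 34, 47 and 43 TPM against 23, 27 and 25 TPM there. At 14 DAF its values were 36, 46 and 38 TPM against 44, 43 and 35 TPM (0.02), and the difference between the ages did not pass (adjusted p = 0.209).

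The difference from the shading effect at 14 DAF was tested over all genes. Between 7 and 14 DAF in the optimal sowing 68 genes (0.126%) differed, 36 with the higher effect at 7 DAF and 32 with the lower, and the split was 17 to 10 after rescaling to equal sums. Seeds of both ages came from the same plots, which this fit treats as independent, and with the replicate number as a block 25 genes differed, 11 higher and 14 lower. Of the 68, 10 were also among the 118 genes past the threshold here, 7 of them lower and 3 higher under shading. The 118 were selected on the effect at 7 DAF, which is a term of this difference. The overlap and its directions are therefore not independent of that selection. BnaC07g29830D fell by 1.41 on the log2 scale at 7 DAF and had 99, 133 and 104 TPM in the control and 166, 275 and 151 TPM under shading at 14 DAF, a log2 fold change of 0.77. BnaA06g15800D had -1.64 at 7 DAF and 0.999 at 14 DAF, where its control libraries had 24, 17 and 28 TPM and its shaded libraries 41, 46 and 50 TPM. The reductase gene BnaA01g11840D had -1.20 at 7 DAF and 0.89 at 14 DAF, with 5, 5 and 6 TPM against 7, 14 and 11 TPM. Without shaded replicate 1 of 14 DAF 118 genes differed, and without shaded replicate 2 or 3 of 7 DAF 15 did.

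Changes with age were compared as the last description, with the question whether genes that change with age moved together under shading. Genes were taken as changing with age from the control libraries of the late sowing, which are separate from these 6. Of 3215 genes with at least 5 TPM that were higher at 14 than at 7 DAF there, 10 (0.311%) rose and 20 (0.622%) fell under shading here, and 44.6% had a log2 fold change above 0. Over all 30224 genes at that level 0.185% rose, 0.205% fell and 48.8% were above 0. Of 3768 genes that were lower at 14 DAF, 3 (0.0796%) rose and 16 (0.425%) fell, and 53.1% were above 0. The median log2 fold changes were -0.0301 and 0.0156, and whether these lists differ from other genes was not tested.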

How the data were processed

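Total RNA of seeds was sequenced, and the authors pseudo-aligned reads to the Ensembl Plants transcriptome with kallisto 0.46 and normalized between libraries with sleuth. The deposited values are a score: normalized TPM rounded to whole numbers, for 101040 genes. No read counts were used, so the reads behind a single value are unknown, counting intervals cannot be given, and changes below 1 TPM are lost to rounding.

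Log2(TPM + 0.5) was fitted with limma 3.58.1 (R 4.3.3, with the package data.table in version 1.17.8) as 8 group means over the 24 Lumen libraries, with variances moderated by empirical Bayes along a trend with the mean. Solar libraries were left out of the fit, because those labelled Solar hold differing shares of Lumen transcripts. A gene was tested where 3 or more of the 6 libraries had 1 TPM or more, and Benjamini-Hochberg adjustment ran over all 54173 such genes, with a threshold of 0.05. SE is that of the moderated fit. The differences from 14 DAF and from the late sowing were contrasts of the same fit. Summaries and plots used Python 3.11.15, numpy 2.4.6, pandas 2.3.3 and matplotlib 3.10.9. The fit was tested on simulated data.

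Descriptions came from the readable supplementary tables and cover 4672 genes tested, of which 20 (0.428%) passed. Named genes were, in each direction, up to 12 described genes past the threshold (filled up with those of the smallest unadjusted p), the 4 largest changes, genes the study names and leading members of each list. Those up to 12 described genes had to have a group mean of at least 5 TPM and groups that did not overlap. Members and lists were chosen with earlier results of these data known. Among the genes tested, 924 have another gene with identical values in all 24 Lumen libraries, and 18 of these passed, so the counts hold such copies more than once. Alternatives covered the pseudocount, the filter, scaling, the libraries in the fit, the replicate block and each library left out.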

Additional observations from a re-analysis of the deposited data

Results flagged for a closer look

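The shading effect at 7 DAF in the optimal sowing differed from another setting by the limma test of the difference in 10 of the 118 genes past the threshold with at least 5 TPM, each with all libraries in the fit. The 118 were selected on the effect at 7 DAF in the optimal sowing, a term of each difference, so this count and its directions partly follow from that selection. For 7 of the 10 genes the effect was lower at 7 than at 14 DAF. BnaC07g29830D (difference -2.187, adjusted p = 0.00142), BnaA03g45080D (-2.176, 0.00142) and BnaA06g15800D (-2.634, 0.00158) fell at 7 DAF and had positive log2 fold changes at 14 DAF, where no shaded library was below a control library. BnaA03g45080D had 21, 24 and 25 TPM against 10, 9 and 8 TPM at 7 DAF and 13, 11 and 14 TPM against 18, 31 and 22 TPM at 14 DAF. The sulfate assimilation gene BnaA01g11840D (-2.092, 0.0255), BnaA08g06130D (-1.633, 0.0265) and BnaA09g08410D (-1.51, 0.0304) also had positive values at 14 DAF. BnaA03g35030D (-1.516, 0.0355) had 130, 106 and 118 TPM against 60, 34 and 27 TPM at 7 DAF and 54, 56 and 55 TPM against 46, 60 and 49 TPM at 14 DAF.

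For 3 genes the effect was higher at 7 DAF. BnaC05g13140D (3.972, 0.0383) had 0, 1 and 1 TPM against 4, 7 and 5 TPM at 7 DAF and 4, 6 and 4 TPM against 2, 1 and 1 TPM at 14 DAF. BnaA03g56490D (1.659, 0.00161) had 10, 11 and 9 TPM against 13, 18 and 20 TPM at 7 DAF and 34, 35 and 35 TPM against 21, 15 and 18 TPM at 14 DAF. BnaAnng13370D differed both from 14 DAF (0.7402, 0.0260) and from the late sowing (0.7907, 0.0462), and had 9, 9 and 9 TPM against 13, 14 and 13 TPM at 7 DAF. None of these 10 genes has a description other than BnaA01g11840D, and the number of genes that differ depends on the processing.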

How the results depend on the processing

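For shading at 7 DAF in the optimal sowing 231 genes passed. The count was 71 at an adjusted p of 0.01, 151 with all 48 libraries (115 of them among the 231), 89 with at least 5 TPM in 3 libraries, 1370 with only the 6 libraries and 90 to 149 with a library left out. A pseudocount of 1, no filter, the 3 scalings and no variance trend gave 219 to 289. The difference from 14 DAF passed in 68 genes, and in 10 at 0.01, 9 with all 48 libraries, 28 with the 5 TPM filter, 27 after rescaling to equal sums, 302 with only the 12 libraries and 15 to 118 with a library left out, the highest without shaded replicate 1 of 14 DAF. The difference from the late sowing passed in 25 genes, and in 2 at 0.01, 4 with all 48 libraries, 0 with the 5 TPM filter (2052 at an unadjusted p under 0.05), 3 after rescaling to equal sums, 8 after median-ratio rescaling, 10 after quantile normalization, 60 with only the 12 libraries and 3 to 620 with a library left out, the highest without shaded replicate 1 of the late sowing. Rescaling to equal sums, which also breaks ties of rounded values, gave 11342 genes with groups that do not overlap in place of 6738. Beyond fewer genes or libraries entering the fit, the cause of these changes was not tested. With the replicate block the 3 counts were 208, 25 and 2. Same-numbered control and shaded libraries correlated at 0.059, 0.064 and -0.106 in their deviations, so the numbers were not taken as pairs, and not every library correlated best with its own number. Over 87 named genes and their alternatives, 1337 of 1464 values stayed on their side of the threshold, 113 no longer passed, 14 newly passed and 21 changed sign, none of them in a gene past the threshold. Of the 118 genes, 24 passed in every fit that left out a library. Rounding and the 3 plots per group limit what can be shown for genes of a few TPM.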
